A study of Mus musculus with 20 samples.

Results

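Early supporting-like cells are the cells to which the deposited annotation of a mouse gonad atlas gives that name, and their members were taken from the annotation alone. Of 94705 annotated cells in 20 libraries, 460 carried the name, and 456 of these came from the 4 libraries of E11.5, where E counts days of embryonic development. The E12.5 libraries held 3 and the E16.5 libraries 1, the E10.5 libraries held 0, and those 4 later cells were not used. The atlas was made by droplet single-cell RNA sequencing (10x Genomics 3′ chemistry), which counts the messenger molecules of each gene in a cell as unique molecular identifiers (UMIs). At E11.5 the dissected tissue was the urogenital ridge with the mesonephros, and 2 XX and 2 XY libraries were made. All embryos came from CD-1 females mated with males heterozygous for a Tg(Nr5a1-GFP) reporter transgene, so strain and cross were the same in every group and sex was the contrast within E11.5. Libraries numbered 1 share the earlier of 2 dates in the labels and libraries numbered 2 the later date.

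At this stage the gonad forms where the coelomic epithelium covers the mesonephros, the transient embryonic kidney whose tubules open into the Wolffian duct. Cells of this epithelium that express Nr5a1, the nuclear receptor of steroidogenic tissues, give rise to the supporting lineage, which gives Sertoli cells in the testis and granulosa cells in the ovary. Pax8 is a paired-box transcription factor of the nephric lineage, Wnt4 a secreted ligand needed for nephron formation and for the ovary, Enpp2 (autotaxin) the enzyme that makes lysophosphatidic acid, and Ncam1 a cell adhesion molecule. These 5 genes served as the markers of early supporting-like cells.

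Early supporting-like cells made up 83 of 3991 cells (2.08%, 95% Clopper-Pearson interval 1.66 to 2.57) in XX replicate 1 and 88 of 2281 (3.86%, 3.11 to 4.73) in XX replicate 2. They made up 119 of 5124 (2.32%, 1.93 to 2.77) in XY replicate 1 and 166 of 5274 (3.15%, 2.69 to 3.65) in XY replicate 2. The shares of the sexes overlapped, and both libraries of the later date lay above both of the earlier date. Intervals here cover counting error only. The cell types set beside them, in the same 4 libraries, were coelomic epithelium (2569 cells), mesonephric tubules (1080), mesonephric mesenchyme (8351) and presupporting cells (2693).

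The E11.5 libraries held 46798084 to 115225303 UMIs. The median early supporting-like cell had 15324.5 UMIs, close to mesonephric tubules (15784.5) and mesenchyme (15648) and below coelomic epithelium (19727) and presupporting cells (23226). Summed over cells, early supporting-like cells gave 1408049, 1488809, 1678159 and 2853773 UMIs in XX replicates 1 and 2 and XY replicates 1 and 2, the order used for all lists of 4 values below. Of 16551 distinct barcodes at E11.5, 119 occurred in more than 1 library, and 5 of the 456 cells carried such a barcode. The libraries of the later date held cells that went against their sex label. Cells with a UMI of a Y-linked gene were 109 of 2281 in XX replicate 2 against 12 of 3991 in XX replicate 1, and cells with at least 5 Xist UMIs were 143 of 5274 in XY replicate 2 against 1 of 5124 in XY replicate 1. Among early supporting-like cells these were 4 of 88 and 7 of 166 in the later libraries and 0 in the earlier ones. The numbers of genes called in the main tests on sex are given with and without them.

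The 5 markers are described on the CPM scale, the UMIs of a gene in the summed cells scaled to a common total. The annotation was built from these same counts. Marker levels here and shares of cells below thus describe the annotated cells and are no independent check of the annotation. Pax8 (chr2:24420560-24475599, minus strand, GRCm38) reached 137, 102, 144 and 97.4 CPM in early supporting-like cells. It lay at 2.79 to 4.22 CPM in coelomic epithelium, 6.95 to 12.0 in mesonephric mesenchyme and 62.6 to 93.5 in mesonephric tubules. The lowest early supporting-like library lay above the highest tubule library, but the gap to tubules (log2 ratio 0.63 ± 0.05, SD, n = 4 libraries) was far smaller than the gap to coelomic epithelium (4.73 ± 0.32) or mesenchyme (3.52 ± 0.15).

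Nr5a1 (chr2:38692656-38714542) was shared with the gonadal types instead. Its level was 71.1, 89.8, 121 and 98.8 CPM in early supporting-like cells, 52.2 to 65.6 in coelomic epithelium and 108 to 225 in presupporting cells. In mesonephric tubules and mesenchyme it stayed between 5.53 and 10.6 CPM, 3.61 ± 0.18 and 3.45 ± 0.13 log2 units lower. Early supporting-like cells thus held a level of Pax8 above that of tubules and a level of Nr5a1 above that of coelomic epithelium in the same summed cells. Reads of Nr5a1 and of its antisense gene cannot be told apart where counting ignores strand, and the strand setting was not given in the sources used here.

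The 3 other markers lay above every library of every compared type. Wnt4 (chr4:137277489-137299726) stood at 544, 308, 496 and 317 CPM, highest in the earlier libraries, against 27.6 to 40.8 in coelomic epithelium, 49.7 to 110 in tubules and 83.8 to 137 in mesenchyme. Ncam1 (chr9:49502136-49798925) stood at 516, 395, 590 and 520.0 CPM, 2.08 ± 0.26 log2 units above coelomic epithelium, 1.08 ± 0.15 above tubules and 0.59 ± 0.21 above mesenchyme. Enpp2 (chr15:54838901-54952892) stood at 68.4, 72.6, 82.8 and 92.6 CPM, 3.22 ± 0.28 above coelomic epithelium and 2.67 ± 0.44 above mesenchyme. Its gap to tubules was smaller and less even (1.08 ± 0.37).

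**Figure D1:**
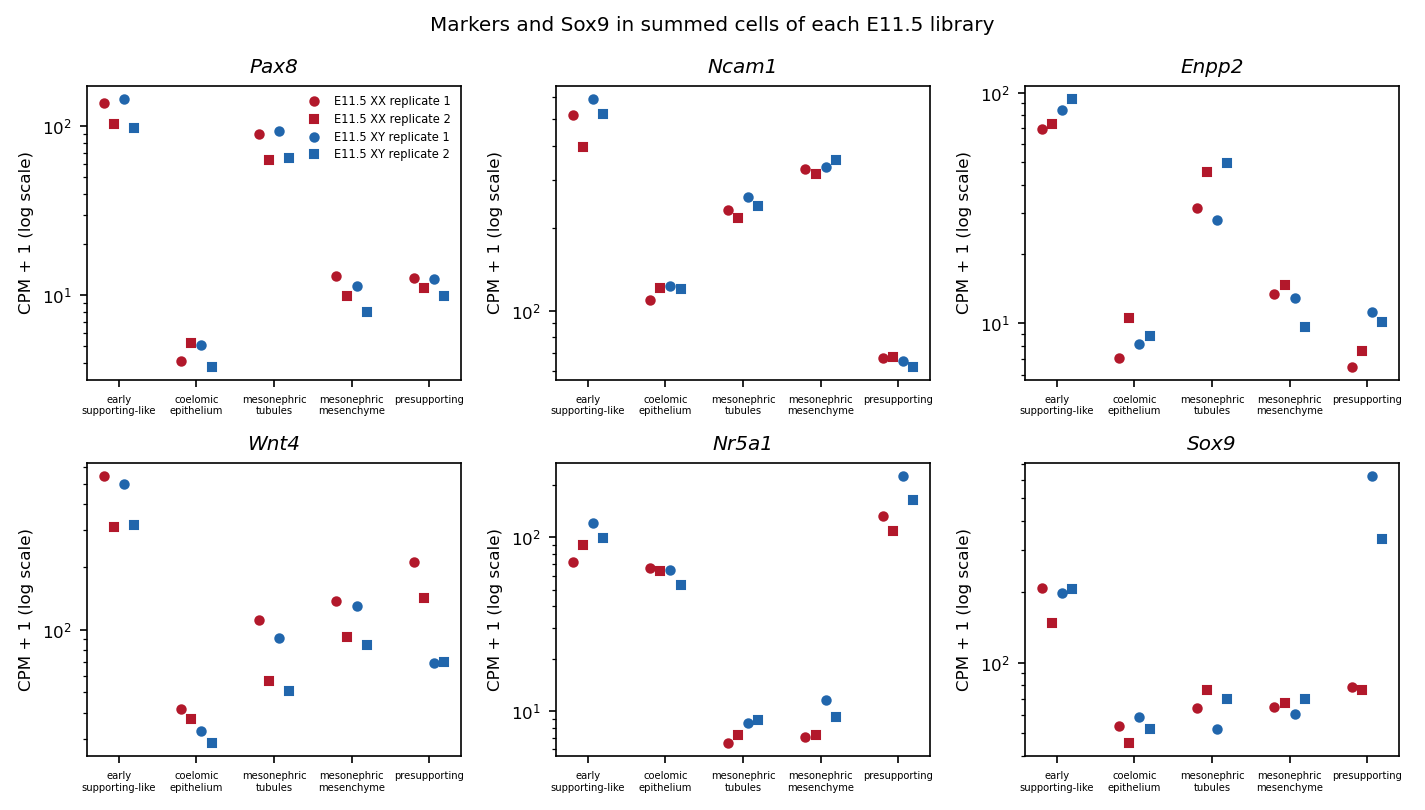
Level of the 5 markers and of Sox9 (CPM + 1, log axis) in the summed cells of each E11.5 library, by cell type, with XX libraries in red, XY libraries in blue, circles for replicate 1 and squares for replicate 2. Pax8 was shared with mesonephric tubules and Nr5a1 with coelomic epithelium and presupporting cells, and Sox9 lay between 146 and 207 CPM in early supporting-like cells of both sexes while presupporting cells divided by sex.

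The markers also met in single cells. Pax8 was detected in 345 of 456 cells (75.7%, 71.5 to 79.5), Nr5a1 in 301 (66.0%, 61.5 to 70.3), Enpp2 in 275 (60.3%, 55.7 to 64.8), and Wnt4 and Ncam1 in 441 each (96.7%, 94.6 to 98.1). Endothelial cells, which should lack most of these transcripts, had a higher median of 25279 UMIs. Pax8 was found in 1.44% of them, Enpp2 in 5.77%, Nr5a1 and Wnt4 in 19.2% each and Ncam1 in 25% of 208 cells.

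Pax8 and Nr5a1 were found together in 240 of 456 early supporting-like cells (52.6%, 47.9 to 57.3), where the product of their separate shares gives 49.9%. The pair was found in 2.88% of coelomic epithelial cells, 6.20% of tubule cells, 0.946% of mesenchymal cells and 11.6% of presupporting cells. To compare cells of unequal depth, each was thinned at random to 8000 UMIs, which left out 21 early supporting-like cells that were shallower. The pair then stood at 29.9% in 435 early supporting-like cells, 0.553% in coelomic epithelium, 2.27% in tubules, 0.400% in mesenchyme and 3.63% in presupporting cells. At least 4 of the 5 markers were detected in 327 of 456 early supporting-like cells (71.7%), or 43.2% after thinning, and in at most 3.70% of the thinned cells of the other 5 types counted.

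**Figure D2:**
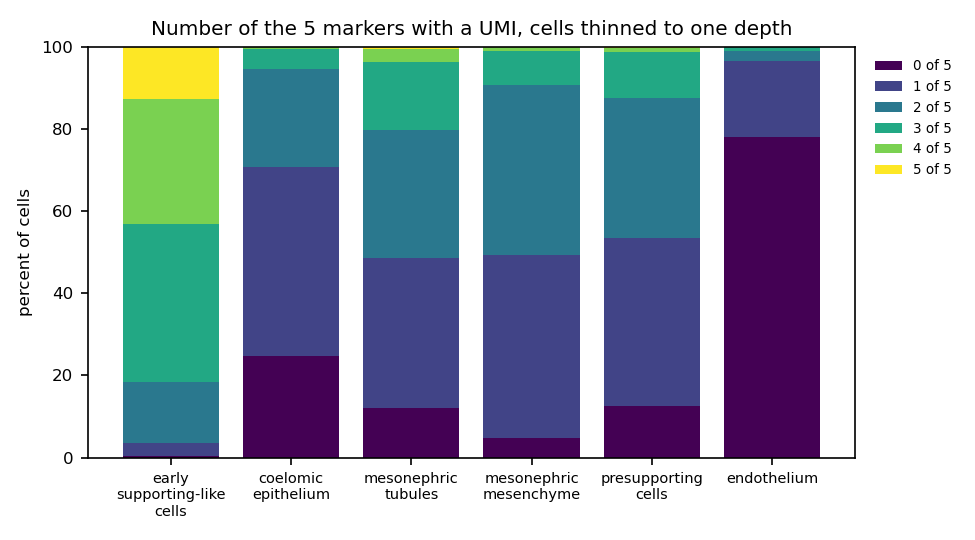
Share of cells (percent, vertical axis) with 0 to 5 of the 5 markers detected, by cell type, after each cell was thinned to 8000 UMIs. At least 4 markers were found in 43.2% of early supporting-like cells and in 3.70% of mesonephric tubule cells, the next highest share.

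Markers of the neighbouring types placed the cells apart from each of them. Among coelomic epithelial markers, Upk3b, a uroplakin of the mesothelial surface, stood at 6.09, 28.6, 6.19 and 12.3 CPM, 3.18 ± 0.62 log2 units below coelomic epithelium. Lhx9, a LIM homeobox factor of the early gonad, stood at 35.9, 38.2, 23.1 and 38.5 CPM against 407 to 470 in coelomic epithelium and 188 to 398 in presupporting cells. Upk1b was at 0 in all 4 libraries.

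Gata4, a zinc finger factor of the gonad, and Wt1, a factor of gonad and kidney progenitors, stood nearer to their levels in coelomic epithelium than in tubules or mesenchyme. Gata4 stood at 76.5, 101, 91.8 and 96.0 CPM, 0.38 ± 0.10 log2 units below coelomic epithelium and 2.88 ± 0.08 above mesenchyme. Wt1 stood at 328, 246, 305 and 269 CPM, within the range of 297 to 380.2 in coelomic epithelium or below it. It lay 2.50 ± 0.30 log2 units above tubules and 0.73 ± 0.16 above mesenchyme, a gap that did not reach 2-fold.

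Pax8 was present with little Pax2 or Lhx1. Pax2, the paired-box factor that acts with Pax8 in nephric development, stood at 1.35, 4.46, 1.69 and 4.09 CPM, against 75.2 to 109 in tubules. Pax2 was detected in 18 of 456 cells (3.95%), and together with Pax8 in 3.29% of early supporting-like and 45.6% of tubule cells. Lhx1 lay at or under 1.35 CPM against 38.0 to 50.5 in tubules, and Epcam, an epithelial adhesion molecule, at 1.13 to 8.17 against 163 to 285. Of the mesenchymal markers, Pdgfra, a growth factor receptor, stood at 9.01 to 13.4 CPM against 58.1 to 64.2 in mesenchyme, and Tcf21 at 13.4 to 26.5 against 84.6 to 191.

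The summed level of 7 germ cell markers was 27.0 to 53.5 CPM. The 6 endothelial markers summed to 32.1 to 47.4 CPM, overlapping with coelomic epithelium (28.9 to 48.2) and mesenchyme (33.1 to 35.6) and above tubules (6.48 to 9.83) and presupporting cells (15.6 to 19.5). The 5 Leydig markers, with Insl3 at 0, summed to 34.5, 103, 34.9 and 99.1 CPM, above coelomic epithelium (16.7 to 26.3), tubules (5.36 to 5.90) and mesenchyme (5.2 to 7.1), while presupporting cells had 84.0 to 175. The part of the endothelial and Leydig markers in other differences was not tested. The summed level was low for 6 immune markers, at 0.637 to 3.38 CPM with Ptprc and Csf1r at 0, and for 6 adrenal and sympathetic markers, at 1.02 to 3.39 CPM with Cyp21a1 and Foxd3 at 0. The 7 erythrocyte markers summed to 559 and 1299 CPM in the earlier XX and XY library and to 85.9 and 107 in the later ones. They moved alike in every type compared, with 522 to 578, 1086 to 1260, 75.7 to 94.1 and 85.8 to 104 CPM in XX replicate 1, XY replicate 1, XX replicate 2 and XY replicate 2. Their part in any difference between dates was not tested.

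The next question was how the whole transcriptome of the cells differed from the types around them. A gene was counted as higher or lower where its log2 ratio of CPM + 1 was at least 2-fold in the same direction in each of the 4 libraries, among genes with a mean of at least 10 CPM. The annotation was built from these same counts, so the ratios describe the cells and carry no p-value. Against coelomic epithelium 157 of 8740 genes were higher (1.8%) and 329 lower (3.76%), with 205 and 251 when CPM were scaled on total UMIs alone. Against mesonephric tubules 410 of 8973 were higher (4.57%) and 519 lower (5.78%), and against mesonephric mesenchyme 348 of 8822 (3.94%) and 468 (5.3%). Against presupporting cells 112 of 8721 were higher (1.28%) and 230 lower (2.64%). The median gene had a log2 ratio of -0.09, -0.06, -0.13 and -0.08 in these 4 comparisons, and ratios should be read against it. The trimmed mean scaling lowered that median by 0.12 for coelomic epithelium and for presupporting cells. Gene lists are counted below by the same 2-fold rule over all their members with no filter on level, since a filter admits members through the type where they are high. Among all genes with a UMI, 1.29% were then higher and 2.27% lower than in coelomic epithelium, 2.99% and 4.78% than in tubules, 2.66% and 3.43% than in mesenchyme and 0.893% and 1.72% than in presupporting cells.

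Against coelomic epithelium, mesonephric tubules and mesenchyme together, 67 of 8259 genes were higher (0.811%) and 17 lower (0.206%). Of the 67, 21 were also counted as higher than in presupporting cells, 1 was lower and 30 were within 1 log2 unit of them. Members that code for secreted proteins and receptors are described first.

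Among the secreted and receptor genes, Bmpr1b, a type I receptor for bone morphogenetic proteins, stood at 28.4, 26.7, 25.3 and 21.5 CPM. It lay between 1.25 and 7.86 CPM in all libraries of the 3 types, against which it was selected. In presupporting cells, which had no part in the selection, it lay between 1.35 and 2.22. Dlk1, an imprinted gene for a Notch-like surface protein, stood at 997, 1409, 835 and 1417 CPM, 2.61 ± 0.30 log2 units above coelomic epithelium, 1.74 ± 0.53 above mesenchyme and 3.45 ± 0.22 above presupporting cells. Both later libraries were the high ones.

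The growth factor Igf1 stood at 106, 97.4, 108 and 127 CPM, against 37.2 to 46.4 in coelomic epithelium, 4.26 to 5.56 in tubules and 14.0 to 15.3 in mesenchyme. Its binding proteins Igfbp5 (903, 731, 835 and 825 CPM) and Igfbp6 (43.3, 46.5, 38.3 and 37.1 CPM) were likewise above all 3 types in every library. Of 11 insulin-like growth factor pathway genes, 4 were higher and 0 lower than in coelomic epithelium, with a median log2 ratio of 0.81. The same list had 3 higher and 2 lower than in tubules and 3 higher and 1 lower than in mesenchyme.

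Of 10 steroidogenic genes, 1 was higher than in coelomic epithelium, Cyp11a1, and 0 were higher and 1 lower than in presupporting cells. The list had 4 higher than in tubules and 3 higher than in mesenchyme, with 0 lower in either. Nr0b1 (Dax1), a repressor that partners Nr5a1, stood at 72.4, 111, 90.7 and 91.6 CPM. It lay 2.28 ± 0.28 log2 units above coelomic epithelium, 5.31 ± 0.25 above tubules and 4.72 ± 0.14 above mesenchyme, and 0.11 ± 0.30 from presupporting cells. Inha, the alpha subunit of inhibin, stood at 124, 204, 112 and 154 CPM, also above the 3 types and near presupporting cells (-0.45 ± 0.22).

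Cyp11a1, the enzyme that starts steroid synthesis from cholesterol, stood at 17.6, 48.4, 6.19 and 39.5 CPM, 1.51 ± 0.72 log2 units below presupporting cells. Both later libraries exceeded both earlier ones, and presupporting cells had the same order with 50.8, 105, 40.5 and 75.3 CPM. Star, the carrier of cholesterol into mitochondria, stood at 16.9, 52.2, 27.0 and 55.8 CPM with the same division by date. It was not counted as higher than in coelomic epithelium (15.1 to 23.1 CPM), though higher than in tubules and mesenchyme, and is thus not among the 67.

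Other members of the 67 stood far below their early supporting-like level elsewhere. Plac8 reached 863, 877, 846 and 957 CPM against 45.1 to 98.3 in coelomic epithelium, 179 to 242 in tubules and 30.7 to 92.3 in presupporting cells. G6pc2, which codes for a glucose-6-phosphatase subunit, stood at 96.8, 82.8, 86.7 and 74.2 CPM and at or under 10.6 in every library of the other 4 types. Htra1, a secreted serine protease, stood at 33.2, 31.8, 64.2 and 49.7 CPM, 2.70 to 4.73 log2 units above the 4 types on average. Cygb (cytoglobin, an oxygen-binding globin) stood at 184, 175, 190 and 178 CPM, and after thinning it was detected in 64.6% of early supporting-like cells, 15.9% of coelomic epithelial and 13.0% of presupporting cells and in 0.5% of endothelial cells. Prcd, at 57.3 to 69.7 CPM, overlaps Cygb on chromosome 11 (chr11:116653534-116668389 and chr11:116645595-116654313). The overlap lies at the start of Prcd, a gene of the plus strand. Whether reads of the pair were divided between them was not tested.

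**Figure D3:**
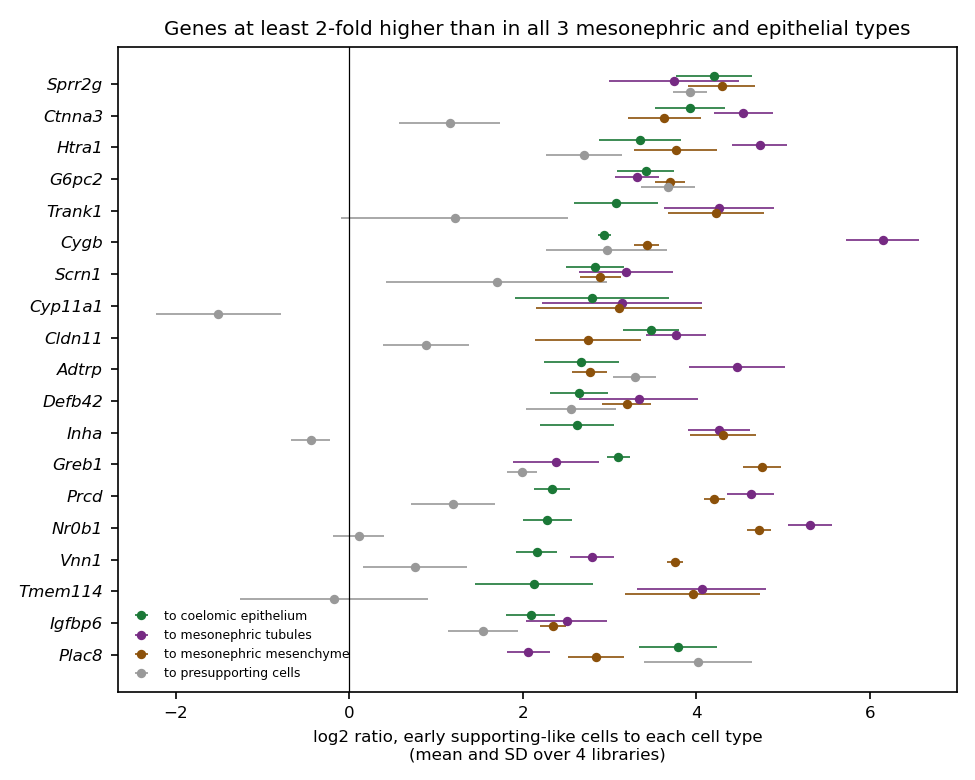
Of the 20 genes with the largest smallest gap to the 3 compared types, 19 are drawn, as mean log2 ratio of CPM + 1 between early supporting-like cells and each type (horizontal axis, bars are SD over 4 libraries), with presupporting cells in grey. Sprr2g, G6pc2, Cygb and Plac8 stood above presupporting cells as well, whereas Inha and Nr0b1 lay within 0.5 log2 units of them and Cyp11a1 lay below.

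Among the 17 genes lower than in all 3 types were 2 HOX genes, the position factors of the body axis. Hoxd9 stood at 7.45, 0.637, 6.76 and 8.17 CPM against 87.5 to 126 in coelomic epithelium and 21.5 to 45.8 in tubules and mesenchyme. Hoxc10 stood at 0 to 4.43 CPM against 13.4 to 139. Across the list of 36 HOX genes, 16 were lower than in tubules, 14 lower than in mesenchyme and 8 lower than in coelomic epithelium, and 1 was higher than in coelomic epithelium. Against presupporting cells 5 were higher and 2 lower. Fn1, the matrix protein fibronectin, stood at 17.6, 17.8, 11.8 and 17.7 CPM against 65.5 to 109 in the 3 types.

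Cell division genes stood low as whole lists against coelomic epithelium and mesenchyme. Of 18 S phase genes, which copy DNA, 14 were lower than in coelomic epithelium and 11 lower than in mesenchyme, with median log2 ratios of -1.62 and -1.52. Of 18 G2 and M phase genes, which run mitosis, 17 and 18 were lower, with medians of -1.87 and -1.91. Of either list 0 were higher. Against tubules 1 S phase gene and 0 G2 and M phase genes were counted as lower (medians -0.44 and -0.89), and against presupporting cells likewise 1 and 0 (medians -0.74 and -0.49).

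Mcm5, a subunit of the replicative helicase, stood at 28.4, 36.3, 29.8 and 37.1 CPM against 116 to 142 in coelomic epithelium and 91.9 to 116 in mesenchyme. Top2a, the topoisomerase that untangles chromosomes, stood at 33.2, 33.1, 41.7 and 37.8 CPM against 156 to 164 and 131 to 157. Cdk1, the kinase that starts mitosis, stood at 27.1, 21.0, 21.4 and 31.7 CPM against 118 to 154 and 112 to 133. In each of these genes the early supporting-like libraries lay well apart from the libraries of both types.

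The deposited table assigns a phase of the cycle to each cell. G1 was assigned to 417 of 456 early supporting-like cells (91.4%, 88.5 to 93.8), and to 89.8% to 94.1% in the single libraries. The share was 44.5% in coelomic epithelium, 48.8% in mesenchyme, 76.8% in tubules and 81.3% in presupporting cells. After thinning to 8000 UMIs, an early supporting-like cell held a mean of 2.90 UMIs of G2 and M phase genes, against 10.0 in coelomic epithelium, 10.8 in mesenchyme, 5.01 in tubules and 3.63 in presupporting cells. The mean for S phase genes was 5.21, against 13.3, 12.0, 5.89 and 7.17.

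Of 12 genes listed for inhibition of the cycle and exit from it, with the cyclin Ccnd2 among them, 0 were higher or lower than in coelomic epithelium. Cdkn1c was higher than in tubules and Cdkn1a higher than in mesenchyme, and Ccnd2 was lower than in both. Cdkn1c (p57) stood at 370.3, 614, 374 and 530.2 CPM, 1.06 ± 0.30 log2 units above coelomic epithelium and 0.94 ± 0.22 above mesenchyme, without reaching 2-fold in each library. Cdkn1a (p21) stood at 72.4, 78.9, 107 and 64.4 CPM, 2.69 ± 0.39 above mesenchyme and 1.18 ± 0.26 below tubules. The cyclin Ccnd2 stood at 86.6 to 125 CPM, below all libraries of coelomic epithelium (200.3 to 286), tubules (241 to 297) and mesenchyme (440 to 520.4).

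Promoters are shown of 3 division genes, which stood low together, and of Prcd, a higher gene. Each was chosen among genes whose promoter holds a match of the motif. The stretch of Prcd lies inside its gene interval given above, before a start site of RefSeq. Sequences are the 250 bases before a start site, from RefSeq on GRCm38.p6, given 5′ to 3′ on the gene's strand. They were matched for 15 of 18 S phase genes, 15 of 18 G2 and M phase genes and 47 of the 67 higher genes. E2F sites were searched on both strands as TTTCCCGC, TTTGGCGC or TTTCGCGC, the cell cycle homology region (CHR) as TTTGAA and the NR5A1 site as CAAGGTCA. Capitals mark the matches, which in Mcm5 are 2 overlapping E2F sites on opposite strands, in Cdk1 and Top2a CHR sites and in Prcd the NR5A1 site. An E2F match of Cdk1 is left in lower case.
Mcm5 (chr8:75109259-75109508, plus strand): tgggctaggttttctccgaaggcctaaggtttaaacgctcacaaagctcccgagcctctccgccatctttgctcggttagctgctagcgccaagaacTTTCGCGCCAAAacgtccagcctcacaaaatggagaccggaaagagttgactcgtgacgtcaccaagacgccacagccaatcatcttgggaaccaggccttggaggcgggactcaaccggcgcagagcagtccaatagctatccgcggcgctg
Cdk1 (chr10:69352913-69353162, minus strand): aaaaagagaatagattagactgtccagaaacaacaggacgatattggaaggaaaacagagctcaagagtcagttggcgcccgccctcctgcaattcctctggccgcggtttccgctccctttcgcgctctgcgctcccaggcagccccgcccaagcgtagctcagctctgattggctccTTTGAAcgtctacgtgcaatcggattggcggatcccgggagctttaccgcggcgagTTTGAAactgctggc
Top2a (chr11:99024190-99024439, minus strand): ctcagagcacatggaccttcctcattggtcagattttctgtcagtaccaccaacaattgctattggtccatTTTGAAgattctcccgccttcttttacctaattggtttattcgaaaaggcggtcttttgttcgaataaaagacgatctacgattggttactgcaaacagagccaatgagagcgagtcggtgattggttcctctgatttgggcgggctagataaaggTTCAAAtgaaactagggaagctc
Prcd (chr11:116656858-116657107, plus strand): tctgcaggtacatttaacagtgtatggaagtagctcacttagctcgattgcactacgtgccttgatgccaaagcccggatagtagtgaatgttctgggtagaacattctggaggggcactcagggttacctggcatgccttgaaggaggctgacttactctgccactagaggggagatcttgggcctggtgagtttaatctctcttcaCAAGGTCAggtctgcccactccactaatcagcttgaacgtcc

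E2F letters were found before 5 of 15 S phase genes (Cdc6, Mcm5, Mcm6, Mcm7 and Uhrf1) and before 1.78% of all 27025 genes with a promoter sequence. CHR letters were found before 6 of 15 G2 and M phase genes and before 18.3% of all genes. NR5A1 letters were found before 3 of the 47 higher genes (Adtrp, Defb42 and Prcd) and before 1.51% of all genes. A match of letters is a description of the sequence and was not tied to binding in these data.

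Genes of tissue type divided the cells from tubules and mesenchyme. Of 20 epithelial genes, 18 were lower than in tubules (median log2 ratio -4.18), Epcam and the cadherin Cdh16 among them (-5.62 ± 0.69 and -5.41). Both are also among the tubule markers, so the choice of this list bears on that count. Of the same list, 1 was higher and 2 lower than in coelomic epithelium (median 0.13). In the comparison with mesenchyme 3 were higher and 0 lower (median 0.09). Of 20 mesenchymal genes, 15 were lower than in mesenchyme (median -2.79) and 6 lower than in coelomic epithelium (median -0.72). Against tubules 6 of the mesenchymal genes were higher and 1 lower (median 0.52). Col3a1, a fibrillar collagen, stood at 80.6, 38.8, 58.0 and 58.6 CPM against 369 to 488 in mesenchyme. Against presupporting cells 1 epithelial and 0 mesenchymal genes were lower.

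Transcription factors of the gonad gave 8 higher and 1 lower of 26 genes against tubules and 6 higher and 6 lower against mesenchyme. Against coelomic epithelium 2 were higher, Nr0b1 and Tbx3, and 3 were lower, among them Lhx9 and Tcf21. Against presupporting cells 2 were higher, Nr2f1 and Tbx3, and 2 were lower, Gata4 and Lhx9. Nephric transcription factors gave 14 lower and 0 higher of 19 against tubules, and against coelomic epithelium 3 were higher, Pax8, Osr2 and Gata3.

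**Figure D4:**
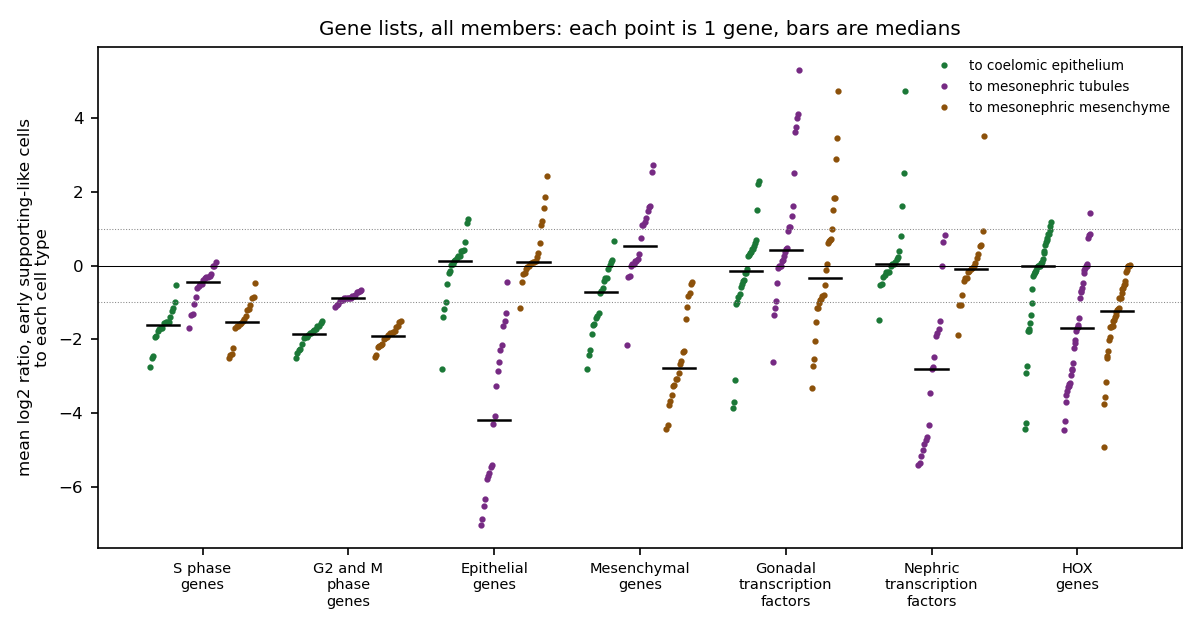
Mean log2 ratio of CPM + 1 (vertical axis) between early supporting-like cells and coelomic epithelium (green), mesonephric tubules (purple) or mesonephric mesenchyme (brown) for all members of 7 gene lists, with 1 point for each gene, black bars at the medians and dotted lines at 2-fold. Division genes lay low against coelomic epithelium and mesenchyme, epithelial and nephric genes against tubules, and mesenchymal genes against mesenchyme.

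Of 14 WNT ligands and enhancers, 1 was higher and 1 lower than in coelomic epithelium, 2 and 2 than in tubules (Wnt11 higher, Wnt7b and Wnt9b lower), 4 and 2 than in mesenchyme (Wnt6 and Wnt9a higher, Rspo3 lower) and 1 and 1 than in presupporting cells (Wnt6 lower), beside those named next. Wnt4 was higher than in all 4 types, Rspo1, an enhancer of WNT signals, was higher than in mesenchyme (1.64 ± 0.24), and Wnt5a was lower than in coelomic epithelium (-2.13 ± 0.40) and mesenchyme (-1.85 ± 0.28). Of 16 WNT receptors, 0 were counted as higher or lower than in coelomic epithelium, while 4 were lower than in mesenchyme (Fzd1, Fzd2, Ror1 and Ror2) and 2 higher (Lgr4 and Fzd5), and Fzd6 and Lgr5 were lower than in tubules. Of 13 WNT targets, Znrf3 and Nr0b1 were higher than in coelomic epithelium, 3 were higher (Lef1, Sp5 and Nr0b1) and 2 lower than in tubules, 2 higher and 3 lower than in mesenchyme, and Nkd1 was higher than in presupporting cells. Sp5, a WNT target, stood at 15.6, 26.1, 34.9 and 25.9 CPM, within the range of coelomic epithelium or below it and above tubules by 3.05 ± 0.62 log2 units.

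Of 8 BMP ligands, 2 were lower than in coelomic epithelium (Bmp2 and Gdf6), 2 lower than in tubules, 3 lower than in mesenchyme and 1 lower than in presupporting cells, and 0 were higher than in any of them. Bmp2 stood 1.32 ± 0.32 log2 units below coelomic epithelium and 2.51 ± 0.34 below presupporting cells. Of 7 BMP target genes, 0 were counted as higher or lower than in coelomic epithelium. The homeobox genes Msx1 and Msx2 were higher than in tubules and mesenchyme, and Id2, Id3 and Msx2 higher than in presupporting cells. Id2, an inhibitor of differentiation factors, stood at 827, 541, 692 and 518 CPM against 168 to 245 in presupporting cells.

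In the lysophosphatidic acid pathway, Enpp2 was the 1 higher gene of 9 against coelomic epithelium and against mesenchyme. The receptor Lpar1 (23.0, 21.0, 21.4 and 25.5 CPM) was lower than in both (-1.15 ± 0.09 and -1.69 ± 0.14). Plpp3 was also lower than in coelomic epithelium and Lpar4 than in mesenchyme. Of the 9, 0 were higher and 1 lower (Plpp2) than in tubules, and 1 higher (Enpp2) and 1 lower (Plpp3) than in presupporting cells. In the retinoic acid pathway 8 of 14 genes were lower and 2 higher than in mesenchyme, the lower ones with the synthesising enzyme Aldh1a2 at 34.9 to 62.3 CPM against 259 to 304. Aldh1a1 (2.62 ± 0.54) and Aldh1a3, other such enzymes, were the higher ones. The same list had 1 higher and 1 lower than in coelomic epithelium, 2 and 2 than in tubules and 0 and 1 than in presupporting cells. Of 24 axon guidance genes, 2 were higher (Nrp1 and Plxna2) and 5 lower than in coelomic epithelium, 2 higher and 5 lower than in tubules, 1 higher and 5 lower than in mesenchyme and 4 higher and 1 lower than in presupporting cells. The neuropilin Nrp1, a receptor for semaphorins and VEGF, stood at 77.9, 42.6, 68.1 and 62.3 CPM against 8.91 to 12.48 in coelomic epithelium and 10.8 to 17.1 in presupporting cells. It overlapped with tubules (63.2 to 82.96 CPM) and mesenchyme (38.8 to 55.0).

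Sex was compared within early supporting-like cells by edgeR's quasi-likelihood test on the summed counts of 2 XX and 2 XY libraries. Of 10434 genes tested, 2 were called (0.0192%), the Y-linked genes Eif2s3y (log2 XX to XY -5.76, SE 0.541, adjusted p = 0.0408) and Ddx3y (-5.59, SE 0.546, adjusted p = 0.0408), both lower in XX. At an unadjusted p under 0.05 there were 122, and DESeq2 called 3, Eif2s3y, Kdm5d and Tsix, but not Ddx3y (adjusted p = 0.9999). Xist, the RNA of X inactivation, had 1408, 889, 0 and 74.6 CPM and was not called (log2 4.90, adjusted p = 0.9998), and without the cells that went against their label, which in XY were chosen by their Xist UMIs, it was called by construction. The other genes called were then the same Y-linked pair. Leaving out XX cells by their Y-linked UMIs removes all UMIs of this pair from XX, so this too follows from the choice of cells. The 219 Xist UMIs of XY replicate 2 came from 10 of 166 cells. Without XX replicate 2 the test called 7 genes, and without XY replicate 1 it called 13.

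With date as a block, because the labels pair the libraries by date, 18 genes were called, 4 higher and 14 lower in XX. They held Xist and the Y-linked genes Eif2s3y, Ddx3y, Kdm5d and Uty. They also held the early response genes Fos (log2 -1.04, adjusted p = 0.00482), Dusp1 (-0.77, adjusted p = 0.00845), Egr1 (-0.71, adjusted p = 0.0204) and Jun (-0.64, adjusted p = 0.0204). Fos stood at 309, 188, 478 and 527 CPM, and both XY libraries lay above both XX libraries. The 18 also held the globin gene Hba-a1, at 138, 12.7, 298 and 27.9 CPM, and the 7 erythrocyte markers were likewise higher in the XY than in the XX library of each date. Their part in the other calls was not tested.

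Sox9, the factor that directs Sertoli cell fate, was present in early supporting-like cells of both sexes. It stood at 207 and 146 CPM in the XX and at 197 and 205 CPM in the XY libraries, so the sexes overlapped (log2 -0.18, SE 0.226, adjusted p = 0.9998). It was detected in 358 of 456 cells (78.5%, 74.4 to 82.2) and in 13.46% of endothelial cells. Coelomic epithelium held 44.4 to 57.9 CPM, 1.85 ± 0.15 log2 units less. Presupporting cells held 77.7 and 75.7 CPM in the XX and 623 and 334 CPM in the XY libraries, with no overlap. The early supporting-like level thus lay above XX and below XY presupporting cells.

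The difference between these sex differences was tested as an interaction, with the library as a block since the cell types of a library share its embryos and depth. Of 15526 genes, 79 were called against presupporting cells (0.509%), 68 with a positive and 11 with a negative term, where positive means that XX to XY was larger in early supporting-like cells. Sox9 gave 2.37 (SE 0.238, adjusted p = 0.000165). All 68 were higher in XY than in XX presupporting cells, 48 of them at least 2-fold. The median log2 XX to XY of the 68 was -1.39 in presupporting cells and -0.01 in early supporting-like cells, where 2 of the 68 differed at least 2-fold. Some of the 68, such as Lpar3 and Col14a1, had few UMIs in early supporting-like cells. The sex difference was larger in presupporting cells for 76 of the 79 genes. Xist was among these 76, with a negative term (-1.90) that turned positive without XY replicate 2, the library with XY-labelled cells that held Xist. The 79 genes were selected by the interaction itself, and the filter could admit them through presupporting cells alone. The counts and medians thus describe the called genes and are no separate support.

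Of 21 testis pathway genes tested, 4 were called, all with a positive term, namely Fgf9, Aard and Mmd2 beside Sox9. Fgf9, a growth factor of the XY gonad, stood at 10.8, 6.37, 13.0 and 10.2 CPM in early supporting-like cells and at 3.14, 4.35, 62.4 and 27.6 in presupporting cells (term 3.06, SE 0.498, adjusted p = 0.00649). Mmd2 stood at 14.9, 9.55, 19.2 and 13.6 against 0.604, 2.31, 37.6 and 35.9 CPM (4.38, SE 0.563, adjusted p = 0.00121), and Aard at 13.54, 8.91, 8.45 and 11.6 against 2.90, 3.11, 30.7 and 26.9 (3.38, SE 0.417, adjusted p = 0.000943). In all 3 the early supporting-like libraries of both sexes lay between XX and XY presupporting cells.

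Of 11 ovary pathway genes tested, 1 was called, Wnt4, with a negative term (-1.25, SE 0.176, adjusted p = 0.00294). In presupporting cells Wnt4 stood at 209 and 141 CPM in the XX and 68.4 and 69.1 CPM in the XY libraries, while early supporting-like cells had a high and a low library in each sex. Cygb, Igf1, Igfbp5 and Cdkn1a also had negative terms (-1.19, -0.84, -0.82 and -1.32), and each was higher in XX presupporting cells. Fos had a negative term as well (-0.835), with the larger sex difference in early supporting-like cells (log2 XX to XY -1.01, against -0.17 in presupporting cells).

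**Figure D5:**
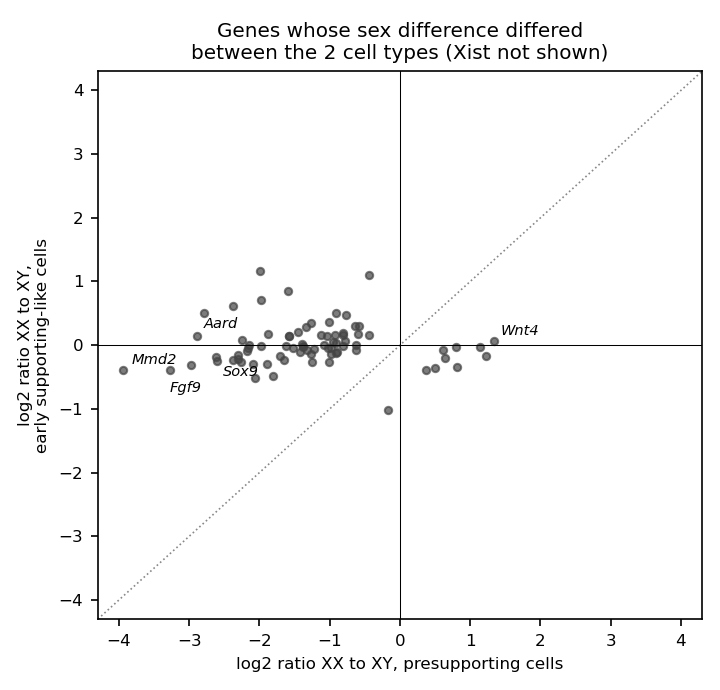
Log2 ratio of XX to XY mean CPM + 1 in presupporting cells (horizontal axis) and early supporting-like cells (vertical axis) for the genes called in the interaction, with 1 point for each gene and a dotted line of equality. The 68 genes with a positive term have a median of -1.39 on the horizontal and of -0.01 on the vertical axis. Of all genes drawn, Lpar3 (1.17, from a few UMIs per sum), Clu (1.10) and Fos (-1.01) differed at least 2-fold on the vertical axis, and Xist is not drawn.

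Without the library block the interaction called 0 genes (609 at an unadjusted p under 0.05), and DESeq2 called 53 with it. Without XX replicate 2 it called 200 genes. It called 158 without the cells of highest doublet score and 131 without the cells that went against their label.

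Against the other types few sex differences differed. With coelomic epithelium the interaction called 2 of 14118 genes (0.0142%), and each had 1 library far above the others. Dqx1 stood at 1.35, 2.55, 2.25 and 55.2 CPM, and Serpina1b, which has near-identical relatives among which reads may be divided, at 112, 3.18, 2.25 and 9.20 CPM. The call of Dqx1 was lost without XY replicate 2 or XX replicate 2 and that of Serpina1b without XX replicate 1, and the number of genes called was 4, 7, 26 and 13 without XX replicate 1, XX replicate 2, XY replicate 1 and XY replicate 2. With mesonephric tubules it called 3 of 13354 (0.0225%), AC122539.3, Xist and Hspa1a, and 15, 3, 18 and 5 without the same libraries in turn. The call of AC122539.3 was lost without XX replicate 1, and those of Xist and Hspa1a without XX replicate 2 or XY replicate 2. With mesonephric mesenchyme it called 0 of 16665 (0%) by edgeR, with 509 at an unadjusted p under 0.05 and 0 by DESeq2, and 8, 16, 13 and 8 without each library in turn.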

How the data were processed

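The authors deposited 1 matrix of raw UMI counts per gene and cell (26397 genes, 94705 cells, 20 libraries) and a table of cells with libraries, cell type names, phases and phase scores. Per the labels and the study's methods, libraries were sequenced on a HiSeq4000 and mapped to GRCm38 with Cell Ranger 2.1. The phase scores deposited by the authors are the mean of a gene set minus that of reference genes on log-normalized counts, and phases were taken as given. The strand setting of the counting was not given in the sources used here. The 2 libraries per sex are labelled as independent replicates.

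Counts were summed per cell type and E11.5 library and scaled to CPM with trimmed mean factors (edgeR 4.0.16, R 4.3.3). Cell types were compared by log2 ratios with a pseudocount of 1 CPM and a mean of at least 10 CPM, with no test. Sex was tested with edgeR's quasi-likelihood test, filterByExpr, Benjamini-Hochberg adjusted p under 0.05 and a log2 change of at least 0.361. SE is the log2 change divided by the root of F. On simulated counts the sex test recovered 20% of 2-fold and 81% of 4-fold changes, with 2 false calls. The interaction with presupporting cells recovered 31% and 70%, with 1 false call. The simulation changed many genes at once and drew counts from the dispersion trend alone. Genes did not vary around that trend, and for the sex test no deviation was shared within a date. These shares thus may not hold for the real counts. Doublet scores were computed anew with Scrublet in scanpy 1.11.5. It called 74 of 16670 cells (0.444%), too few to use, so scores alone served as an alternative.

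Libraries of a date deviated together: deviations of the XX and XY sums of early supporting-like cells correlated at 0.382, and those of early supporting-like cells and other types of a library at 0.481 to 0.617. With 2 libraries per sex, the correlation is the same for both dates by construction. The labels give the dates, which do not say what was shared.

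The members and gene lists were chosen with earlier results of these data known. Genes named are the markers of the compared types, the extreme genes of each comparison by fixed numbers, up to 6 members per list, and genes called by sex. Names beyond these were chosen after their values were seen. Some genes that the rule names are not reported here, though counts and medians of lists include them. Alternatives were another normalization, filter, pseudocount, tool, block, doublet score, equal cell numbers and leaving out each library. Leaving out cells against their sex label, and counting gene lists over all members without the filter, were chosen after seeing the data. Positions are from GENCODE M21 and promoter sequences from RefSeq.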

Additional observations from a re-analysis of the deposited data

Results flagged for a closer look

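Sex differences that differed between early supporting-like cells and another cell type, by edgeR's interaction test with the library as a block, stand out. The term is the log2 XX to XY of early supporting-like cells minus that of the other type.

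With presupporting cells 79 genes were called. The largest terms were Lpar3 (5.18), Mmd2 (4.38), Gstm6 (3.87), Col14a1 (3.499), Lama4 (3.49), Aard (3.38), Gm11837 (3.28), Fgf9 (3.06), Dusp15 (3.02) and Ptpre (2.67). Lpar3, a lysophosphatidic acid receptor, stood at 3.39, 3.18, 1.13 and 0.681 CPM in early supporting-like cells and at 0.423, 0.711, 4.72 and 5.74 CPM in presupporting cells, and with so few UMIs in early supporting-like cells no order by sex is read from them. Ptpre, a receptor phosphatase, stood at 16.9, 17.8, 22.0 and 10.9 CPM in early supporting-like cells and at 3.63, 4.44, 27.0 and 19.0 CPM in presupporting cells. Dusp15 stood at 3.18 to 6.19 CPM in early supporting-like cells of both sexes and at 2.48, 3.46, 33.2 and 27.4 CPM in presupporting cells. Col14a1 and Lpar3 lay under 7 CPM in both types.

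With coelomic epithelium 2 genes were called, Dqx1 (-4.55) and Serpina1b (2.85). Dqx1 was also high in the tubules of XY replicate 2 (55.7 CPM, against 0.656 to 4.90 in the other 3 libraries). With mesonephric tubules 3 were called, AC122539.3 (2.27), Xist (-1.67, turning to 4.61 without XY replicate 2) and Hspa1a (-1.13). The call of AC122539.3 was lost without XX replicate 1 (1.48), that of Hspa1a without XX replicate 2 (-1.10) or XY replicate 2 (-0.893), and that of Xist without either of the latter. AC122539.3 stood at 60.9 CPM in XX replicate 1 and at 10.7 to 12.1 in the other libraries of early supporting-like cells. Hspa1a, a heat shock gene, stood at 212 CPM in XY replicate 2 and at 68.1 to 92.9 in the others. Xist reached 74.6 CPM in early supporting-like cells and 23.98 CPM in the tubules of XY replicate 2.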

How the results depend on the processing

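Of 1100 marker ratios under other settings, 1037 moved by less than 1 SD between libraries and 63 by more. Leaving out 1 library cannot move the mean by 1 SD, and the filter of 1 CPM leaves a ratio as it was. These settings were thus bound to count as unmoved, and the tally is no measure of robustness. Of 293 values of tested genes, 219 kept their side of the threshold, 54 fell short of it, 17 passed it and 3 reversed, all of Xist. A reversal was counted only for genes called in the main setting, and the direction of the others was not tallied. Its term against presupporting cells was 6.32 without XY replicate 2 and 0.63 with equal numbers of cells (lowest without a library -2.04), and against tubules 4.61 without XY replicate 2 (lowest -1.78). That library held the XY-labelled cells with Xist.

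Without a filter on low counts the sex test called 34 genes, and the interactions with coelomic epithelium, presupporting cells, tubules and mesenchyme 24, 218, 15 and 12. The date as replicate block gave the sex test 18 calls. Without the replicate block the interactions called 0 with coelomic epithelium, 0 with presupporting cells and 0 with tubules. DESeq2 called 0 with coelomic epithelium and 0 with tubules. Leaving out the highest 5% of doublet scores gave 158 with presupporting cells and 1 with mesenchyme. Leaving out cells against their sex label, chosen after seeing the data, gave 4, 131, 2 and 2 with coelomic epithelium, presupporting cells, tubules and mesenchyme. With tubules the call of Xist was then lost. Equal numbers of cells gave 11, 0 and 1 with coelomic epithelium, tubules and mesenchyme. Leaving out 1 library gave 2 to 13 calls by sex and 4 to 26, 63 to 200, 3 to 18 and 8 to 16 in the 4 interactions. A sex left with 1 library was assumed to vary like the other. The cause of these shifts was not tested.

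With a mean of at least 1 CPM more genes were tested, and the counts higher and lower were 292 and 510 against coelomic epithelium, 664 and 1055 against tubules, 605 and 767 against mesenchyme, 203 and 384 against presupporting cells, and 113 and 39 against the 3 types together. A pseudocount of 5 CPM left 11 lower than all 3. Early supporting-like sums of 83 to 166 cells limit what can be seen of genes of low level, and the simulated 2-fold changes were mostly missed.

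Gene lists were counted over all members, a choice made after seeing the data. With the filter of 10 CPM, 4 in place of 8 HOX genes were lower than in coelomic epithelium, 8 in place of 14 lower than in mesenchyme and 1 in place of 2 lower than in presupporting cells. Other lists named in the text changed by over 1.5 times as follows. Against coelomic epithelium the filter left 1 of 2 lower BMP ligands, 3 of 5 lower axon guidance genes and 2 of 5 higher testis pathway genes. It left 0 of 1 higher retinoic acid genes there. Against tubules it left 1 of 2 higher and 1 of 2 lower WNT ligands, 1 of 2 lower WNT receptors and 1 of 2 lower WNT targets. It also left 1 of 2 lower BMP ligands, 1 of 2 higher retinoic acid genes, 2 of 5 lower axon guidance genes and 3 of 5 higher testis pathway genes. Against mesenchyme it left 1 of 2 higher WNT receptors, 0 of 3 lower BMP ligands, 1 of 2 higher retinoic acid genes, 3 of 5 lower axon guidance genes and 4 of 10 higher testis pathway genes.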

Other observations

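The GFP transcript of the reporter transgene, named after its values were seen, stood at 1121, 1371, 1553 and 1546 CPM in early supporting-like cells. This was within or near the range of coelomic epithelium (1325 to 1816 CPM), above mesonephric tubules (65.2 to 112) and mesenchyme (119 to 134), and below presupporting cells (3084 to 6474). GFP thus had the same order over the types as Nr5a1, whose regulatory sequence drives it, except that the early supporting-like level of Nr5a1 lay above coelomic epithelium in each library.

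Some genes of the supporting lineage were lower than in presupporting cells. Kctd14 stood at 217, 260.4, 241 and 213 CPM against 1252 to 2957, Runx1 at 35.9, 54.1, 45.6 and 38.8 against 98.6 to 157, and Bmyc at 118, 148, 174 and 110.0 against 627 to 1044. Sry, a gene of the Y chromosome, was detected in 2 of 456 cells, and 119 and 166 of the 456 came from XY replicates 1 and 2. Absence of Sry was not told apart from low detection. Of 22 testis pathway genes, counted with no filter on level, 6 were lower than in presupporting cells and 0 higher. The same list had 5 higher than in coelomic epithelium (Sox9, Ptgds, Aard, Mmd2 and Vnn1), 5 higher than in tubules and 10 higher than in mesenchyme, with 0 lower than in any of the 3. Against presupporting cells 6 of 12 ovary pathway genes were lower while Wnt4 and Nr2f1 were higher, beside all genes, of which 1.72% were lower and 0.893% higher. Akr1cl, the 1 gene of the 67 that was lower than in presupporting cells, stood at 235, 404, 218 and 426 CPM against 1011 to 1194. Imprinted genes were divided, with Igf2, H19, Dlk1 and Meg3 higher than in coelomic epithelium and Mest lower (215, 258, 171 and 293 CPM against 674 to 960.0).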
